A study of Mus musculus with 9 samples.

Results

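The genes described are 33 genes that build melanosomes, load them with cargo, move them and set their ion balance, out of 23361 genes in the table. They were taken by symbol from a fixed list: 32 matched directly, and Bloc1s2 was matched under the older symbol Bloc1s2a. Poly(A) RNA had been sequenced from mouse skin cells isolated by FACS (fluorescence-activated sorting), which the labels call melanocyte stem cells. The groups were Quiescent, Active and UVB (medium-wave ultraviolet), with 3 libraries each. Mice of all 3 groups carried the genotype TBPT, whose alleles, and any promoter that drives them, are not spelled out in the labels, and were 10 weeks old. The treatment note names chemical depilation or UVB irradiation alike for every sample, so which group was depilated is not given. Nothing in the labels says whether the libraries of a group came from separate animals, so the p-values measure only the spread between these libraries.

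A melanosome is a pigment organelle of the endosome and lysosome family. Its cargo proteins leave early endosomes through the adaptor complexes AP-3 and AP-1 and the BLOC complexes (biogenesis of lysosome-related organelles complexes), with the small GTPases RAB32 and RAB38. Transporters and channels in its membrane set pH, sodium, calcium, chloride and copper, on which the melanin enzyme tyrosinase depends. Ripe melanosomes are tied to actin by RAB27A, melanophilin and myosin Va. Loss of many of these genes gives albinism, Hermansky-Pudlak, Griscelli or Chediak-Higashi syndrome in people and coat colour mutants in mice.

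The libraries held 21045070 to 35131778 fragments assigned to genes. Levels below are scaled CPM, that is, fragments divided by the library total after correction with TMM factors (edgeR's scaling between libraries) and multiplied by 1e+06. The lineage reference gene Sox10, a transcription factor of the melanocyte and glial lineage, stood at 0.295 to 3.99 CPM in Quiescent, 551 to 661 in Active and 312 to 581 in UVB. Summed over 11 melanocyte lineage markers, the level was 87.5 to 229 CPM in Quiescent, 7908 to 12784 in Active and 936 to 1159 in UVB. The sum was thus lowest in Quiescent, but Dct alone gave 4722 to 7232 CPM of it in Active. By the test given below, 8 of the 11 were higher in UVB than in Quiescent and 3 did not pass, where 25.8% of all genes were higher. Mitf stood higher in Quiescent (47.3 to 64.0 CPM) than in UVB (19.97 to 38.1), although 0 of the 11 were called lower in UVB. Ednrb (13.1 to 107 against 38.1 to 92.2 CPM) and Mlana (2.66 to 10.2 against 3.90 to 8.92 CPM) overlapped. Each of the 11 markers had fragments in every group, although Pax3 was at 0 in a Quiescent library. The sum of 8 dermal fibroblast markers ran the other way, at 337275 to 456148 CPM (25.2% to 30.1% of fragments) in Quiescent, 5758 to 7327 CPM in Active and 24620 to 37125 CPM in UVB, with none at 0 in any library. Col1a1, Col1a2 and Col3a1 gave most of the Quiescent sum (means of 117728, 131987 and 114133 CPM). In UVB against Quiescent 7 of the 8 were lower and 1 higher, where 23.2% and 25.8% of all genes were. The higher one was Col6a1, at 1556 to 1865 CPM in Quiescent and 2709 to 2846 in UVB. Because these are bulk samples, fewer cells of a type and less RNA per cell cannot be told apart. In UVB, 6 T cell markers summed to 12.9 to 19.4 CPM and 6 mast cell markers to 56.7 to 112 CPM, against at most 3.18 and 10.2 CPM in any other library. Of those markers Fcer1a was at 0 in all 3 Quiescent libraries, and Cd3d, Cd3e and Ms4a2 were at 0 in at least 1 of them. Hair matrix markers, 5 genes, summed to 83.5 to 534 CPM in Active and at most 38.9 CPM elsewhere. The part of all these marker levels in the results below was not tested. The transcript Xist gave 23353 to 30356 fragments in UVB and 4 to 12 in each other library, while 4 Y-linked genes gave 0 to 2 and 4106 to 5591 fragments, so the sex of the mice and the UVB group cannot be told apart.

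Slc45a2, Slc24a5, Mlph and Rab38 were low in Quiescent, highest in Active and between them in UVB. Trpm1 and Gpr143 were also highest in Active, but their UVB and Quiescent libraries overlapped. The BLOC and AP-3 subunits differed by no more than about 1 on the log2 scale. In Active against Quiescent, 20 of the 33 genes were higher, 6 were lower and 7 did not pass the test (edgeR quasi-likelihood, Benjamini-Hochberg adjusted p under 0.05 over 15078 genes). Of all genes tested, 29.1% were higher and 29.2% were lower in that comparison, 58.3% in all. In UVB against Quiescent, 14 were higher and 9 lower, where 25.8% and 23.2% of all genes were, 49.0% in all. In UVB against Active, 13 were lower and 0 higher, where 9.19% of all genes were lower and 14.8% higher, 24.0% in all. By unadjusted p under 0.05, Kif13a was the 1 gene higher in UVB than in Active, and DESeq2 and limma called 0 higher. The median log2 difference over the 33 genes was 0.55, 0.34 and -0.28 in the 3 comparisons, beside 0.007, 0.021 and 0.014 over all genes. The groups did not overlap for 28, 22 and 18 of the 33 genes, where 66.2%, 57.6% and 46.7% of all genes tested had no overlap. The comparisons share libraries, so their counts are not independent of each other. With plain library totals in place of the TMM factors, the median of all genes moved to 0.757 in Active against Quiescent and 0.742 in UVB against Quiescent, and the genes lower than in Quiescent fell to 0 of 33 in Active and 2 of 33 in UVB. Apart from those 2, Gpnmb and Bace2 in UVB, the lower calls against Quiescent therefore hold relative to a fixed median of all genes.

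**Figure D1:**
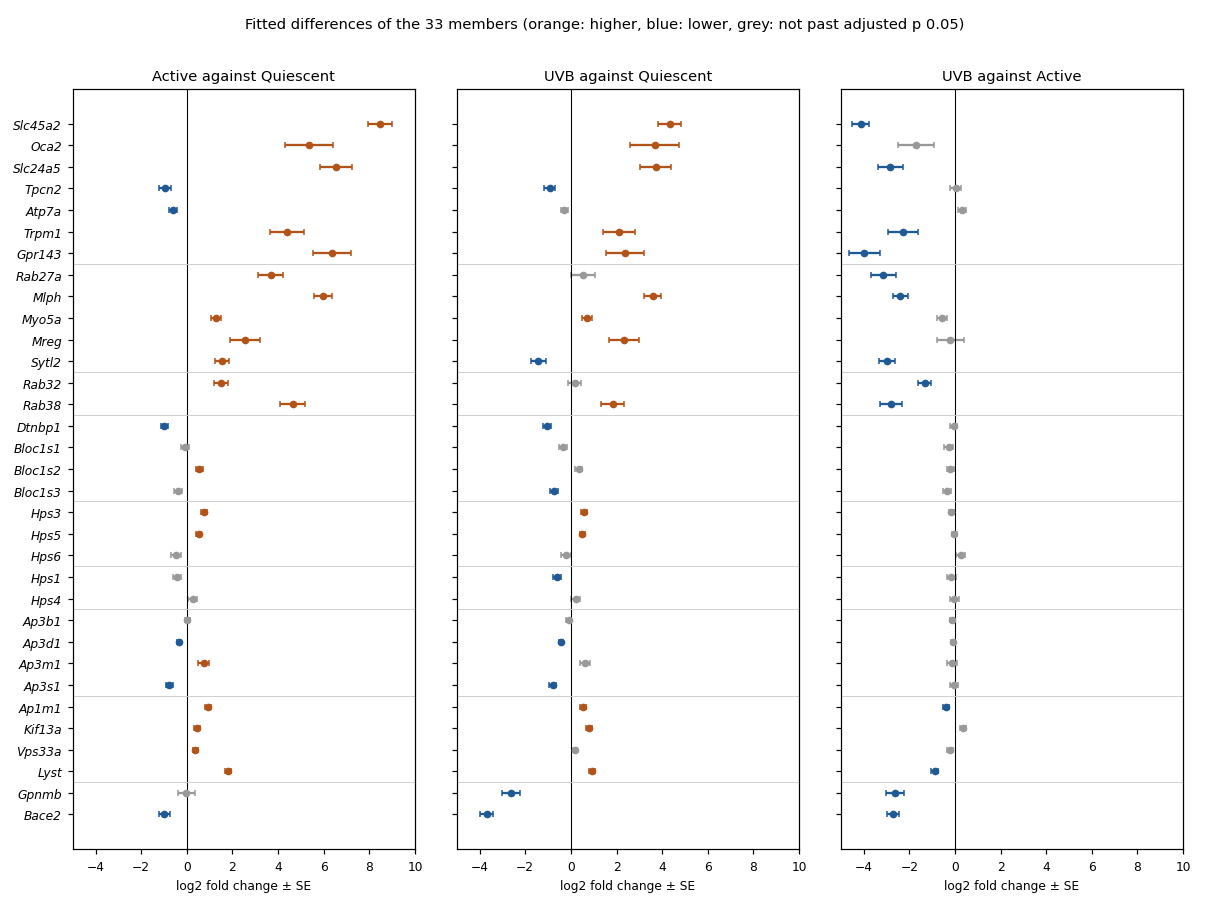
Log2 fold change with its standard error (SE) for the 33 genes in each comparison, in the order of their roles, with orange for higher, blue for lower and grey for genes that did not pass the test. The transporters and the movement machinery spread out to 8.47 for Slc45a2, whereas the points of the BLOC and AP-3 subunits lie between -1.05 and 0.74.

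By pattern, 8 genes were higher in Active and in UVB than in Quiescent and lower in UVB than in Active: Slc45a2, Slc24a5, Trpm1, Gpr143, Mlph, Rab38, Ap1m1 and Lyst. Another 6, Oca2, Myo5a, Mreg, Hps3, Hps5 and Kif13a, were higher than Quiescent in both groups without passing the test between UVB and Active. The share of all genes tested with either pattern was not counted, so nothing is read from the number of genes in each. All 33 genes passed the filter on low counts, but Slc45a2, Oca2, Slc24a5, Gpr143 and Mreg did not reach its level of 0.396 CPM, by plain library totals, in every Quiescent library, and on that scale Gpr143 reached it in all 3 libraries of Active only. For Gpr143 the choice to test it thus leaned on the group where it was high.

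Promoter letters are shown because MITF, the master regulator of pigment cells, is known to bind CACGTG and CATGTG elements. The windows are the 250 bases before each start in the RefSeq table of GRCm38.p6, the same build as the authors' mm10, and 26 of the 33 genes had an entry. Some of these starts lie inside the annotated gene span, so a match need not lie before the whole gene. The spans of the minus-strand genes Hps3 and Vps33a reach 20035334 and 123573043, into the windows below. Sytl2, Bace2, Ap3s1, Ap1m1, Gpr143, Slc45a2 and Rab38 had none. Capitals mark CACGTG or CATGTG on either strand, so a CATGTG on the other strand reads CACATG. The first 4 lines are whole windows of 2 transporter or channel genes and of 2 trafficking genes, at chr2:125067877-125068126 (plus strand), chr7:64153585-64153834 (plus), chr3:20035311-20035560 (minus) and chr5:123573016-123573265 (minus).
Slc24a5: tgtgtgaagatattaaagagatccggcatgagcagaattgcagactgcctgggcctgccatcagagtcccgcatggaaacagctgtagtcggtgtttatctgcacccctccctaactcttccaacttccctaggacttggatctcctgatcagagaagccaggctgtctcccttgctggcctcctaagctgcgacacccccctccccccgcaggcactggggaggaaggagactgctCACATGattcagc
Trpm1, start 1: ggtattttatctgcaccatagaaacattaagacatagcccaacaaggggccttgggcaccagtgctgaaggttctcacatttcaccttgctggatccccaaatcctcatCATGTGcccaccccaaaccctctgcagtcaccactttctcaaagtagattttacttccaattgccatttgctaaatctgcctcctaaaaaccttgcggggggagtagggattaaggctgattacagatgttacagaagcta
Hps3: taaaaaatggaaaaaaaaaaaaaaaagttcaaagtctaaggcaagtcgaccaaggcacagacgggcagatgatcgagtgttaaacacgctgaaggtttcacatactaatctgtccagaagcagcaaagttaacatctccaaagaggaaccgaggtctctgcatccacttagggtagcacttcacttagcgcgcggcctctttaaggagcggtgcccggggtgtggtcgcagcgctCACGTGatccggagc
Vps33a: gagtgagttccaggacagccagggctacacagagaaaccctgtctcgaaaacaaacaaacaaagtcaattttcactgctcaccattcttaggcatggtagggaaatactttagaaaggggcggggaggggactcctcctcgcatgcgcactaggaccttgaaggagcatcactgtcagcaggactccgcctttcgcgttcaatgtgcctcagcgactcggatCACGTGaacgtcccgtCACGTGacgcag

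For 4 further starts of genes that differed most, 30 bases around the match are given. They lie at chr1:90915040-90915069 (Mlph), chr9:73063898-73063927 (Rab27a, start 2), chr7:56239561-56239590 (Oca2) and chr7:64185218-64185247 (Trpm1, start 2), all on the plus strand. Those of Mlph, Rab27a and Trpm1 lie inside the annotated gene spans, which begin at 90915024, 73044810 and 64153835.
Mlph: tcaggagtagccCACGTGatctgagccgca
Rab27a, start 2: cttgCACGTGctcctccgtctgtctgaacc
Oca2: ttgagcttgctaCACATGgctggaattttc
Trpm1, start 2: agtaattggaagCACGTGgctcctcttcct
The letters CACGTG stood in 9 of the 26 genes with an entry and in 6.9% of the 27025 genes of the table. CATGTG stood in 5 of 26 and in 13.8% of genes, and 1 of either element in 12 of 26 and in 19.8%. ACAAAG, a core that SOX proteins are known to bind, stood in 5 of 26 and in 18.6%. Carriers of CACGTG were found among genes that were far higher in Active (Mlph, Rab27a, Trpm1), among sorting subunits that were modestly higher (Hps3, Hps5, Vps33a) and among Atp7a, Bloc1s1 and Bloc1s3, which were not higher. These are letter matches in a window and do not show binding.

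**Figure D2:**
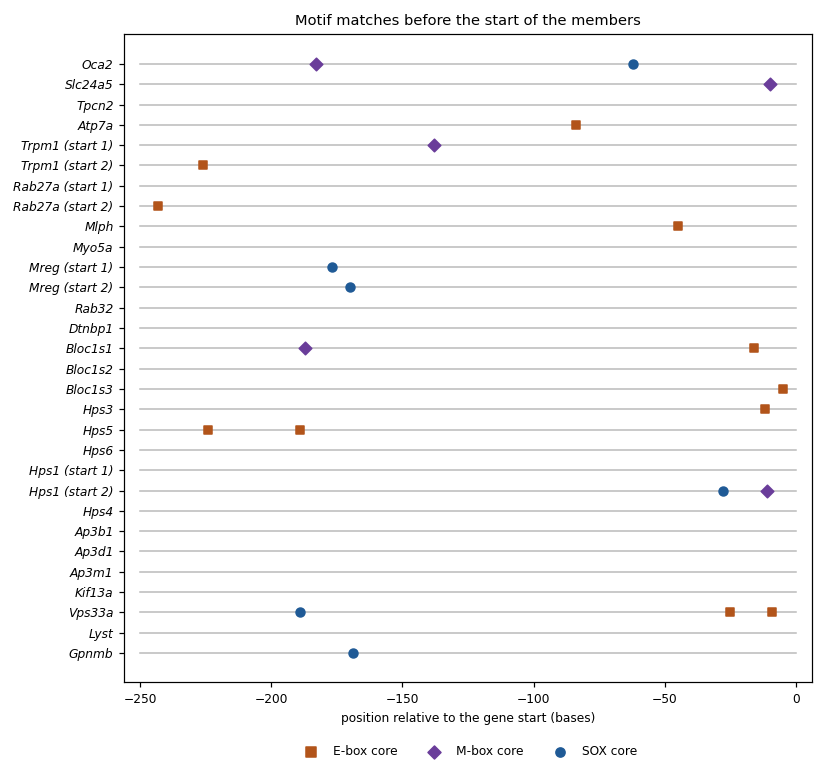
Positions of the 3 motifs in the 250 bases before each of 30 annotated starts of 26 genes, in bases from that start. Some of these starts lie inside the annotated gene span. Squares mark CACGTG (E-box core), diamonds CATGTG (M-box core) and circles ACAAAG (SOX core). Squares stand in windows of 9 genes, at distances that range from close to the start (Bloc1s3, Vps33a, Hps3) to the far end of the window (Rab27a).

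Of the 7 genes for transporters, channels and the receptor, Active against Quiescent called 5 higher and 2 lower, where 29.1% and 29.2% of all genes were. UVB against Quiescent called 5 higher and 1 lower (25.8% and 23.2% of all genes), and UVB against Active 4 lower (9.19%). The widest difference among all 33 genes was that of Slc45a2 (chr15:11000721-11029233), a sugar and proton transporter that keeps the melanosome from becoming acidic. Slc45a2 stood at 0.391, 0.536 and 0.118 CPM in Quiescent, 167, 107 and 105 in Active and 6.52, 4.42 and 10.7 in UVB. No group overlapped another. The log2 difference was 8.47 ± 0.52 (SE, 354-fold, edgeR adjusted p = 6.3e-06) in Active against Quiescent, 4.34 ± 0.50 (1.9e-04) in UVB against Quiescent and -4.13 ± 0.38 (6.3e-04) in UVB against Active. Per length, in the authors' FPKM, Slc45a2 ranked 31st of the 33 genes in Quiescent, 4th in Active and 29th in UVB.

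Slc24a5 (chr2:125068127-125088677) encodes the potassium-dependent sodium and calcium exchanger of the pigment cell, and its CATGTG lies in the window printed above. It stood at 0.626, 0.656 and 0 CPM in Quiescent, 61.8, 37.5 and 26.2 in Active and 7.09, 3.97 and 6.55 in UVB, with no overlap. The log2 differences were 6.54 ± 0.70 (edgeR adjusted p = 7.3e-05) for Active against Quiescent, 3.71 ± 0.66 (0.0019) for UVB against Quiescent and -2.83 ± 0.54 (0.0085) for UVB against Active. The gene overlaps Myef2 in the annotation, and whether the counting used strand is not given in the sources used, so fragments of this gene and of the other 6 named below as overlapping a coding gene may be shared with that neighbour.

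Oca2 (chr7:56239593-56536518), the chloride channel whose loss gives pink-eyed dilution in mice, was the lowest of the 33 genes per length in every group. It stood at 0, 0.298 and 0 CPM in Quiescent, 4.61, 3.95 and 2.94 in Active and 1.95, 0.377 and 1.22 in UVB. All 5 of its Quiescent fragments were in replicate 2. The log2 difference was 5.36 ± 1.06 in Active (edgeR adjusted p = 0.0023) and 3.67 ± 1.06 in UVB (0.019), each against Quiescent. Without Quiescent replicate 2, Oca2 was at least 54.3-fold higher in Active and at least 16.7-fold higher in UVB, taking 3 fragments over the Quiescent group as its upper limit. Leaving out Quiescent replicate 1 gave 25.1-fold for Active and, for UVB, 7.76-fold with an adjusted p of 0.055. Without UVB replicate 1 the UVB call was also lost (adjusted p = 0.063), as it was with only the 2 groups in the fit (0.051). Between UVB and Active the difference of -1.69 ± 0.79 did not pass (0.16), although the libraries did not overlap, and limma on log2(FPKM + 1) and on log2(FPKM + 0.1) did call it (0.011 and 0.033).

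Trpm1 (chr7:64153835-64269772), a cation channel of melanocytes, and Gpr143 (chrX:152781921-152808651), the receptor in the melanosome membrane that limits its size and is lost in ocular albinism, shared this order. Trpm1 stood at 1.10, 3.22 and 0.650 CPM in Quiescent, 47.9, 29.1 and 25.5 in Active and 6.84, 2.19 and 12.3 in UVB. Gpr143 stood at 0.117, 0.358 and 0 CPM in Quiescent, 15.4, 12.95 and 10.96 in Active and 0.945, 0.240 and 1.28 in UVB. Active lay above both other groups for both genes, whereas Quiescent and UVB overlapped. In Active against Quiescent, the fit gave 4.39 ± 0.75 for Trpm1 (20.9-fold, edgeR adjusted p = 0.001) and 6.37 ± 0.83 for Gpr143 (82.6-fold, 2.2e-04). Quiescent replicate 2 was the highest of its group for both, and without it the folds were 38.1 for Trpm1 and 179 for Gpr143.

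The smaller differences of these genes lay near the threshold. In UVB against Quiescent, Trpm1 differed by 2.12 ± 0.70 (4.34-fold, edgeR adjusted p = 0.034). Its call was lost without Quiescent replicate 1 (3.67-fold, 0.11) or 3 (3.39-fold, 0.092), Active replicate 2 (4.34-fold, 0.05), or UVB replicate 1 (4.43-fold, 0.066) or 3 (2.78-fold, 0.11), and without Quiescent replicate 2 the fold was 7.90. It was also lost with 2 groups in the fit (0.069) and in limma on log2(FPKM + 1) (0.053). Gpr143 differed by 2.38 ± 0.83 (5.22-fold, 0.04) and lost the call without any 1 of 7 of the 9 libraries, with folds of 3.68 to 5.21 and adjusted p of 0.056 to 0.12. These 7 include the 3 Active libraries, which are not in the contrast and without which the fold was 5.12 to 5.21. Gpr143 also lost the call in limma on log2(FPKM + 1) (0.077), and kept it without Quiescent replicate 2 (11.3-fold, 0.02) or UVB replicate 2. In UVB against Active, Gpr143 was lower by 3.98 ± 0.68 on the log2 scale (0.0054). Trpm1 fell by 2.27 on the log2 scale there (4.82-fold, 0.037). That call was lost without Active replicate 1 (3.86-fold, 0.12), 2 (5.19-fold, 0.086) or 3 (5.63-fold, 0.053) or UVB replicate 1 (4.73-fold, 0.11) or 2 (3.59-fold, 0.061), while without UVB replicate 3 the fold was 7.55.

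Tpcn2 and Atp7a went the other way. TPCN2 is a cation channel of endolysosomes and melanosomes whose activity lowers pigmentation, and ATP7A is the copper pump that supplies tyrosinase. Tpcn2, which overlaps Smim38 in the annotation, stood at 31.9, 21.9 and 40.2 CPM in Quiescent, 14.4, 16.8 and 17.4 in Active and 12.9, 15.6 and 21.0 in UVB. It was lower by 0.95 ± 0.25 (log2 scale, edgeR adjusted p = 0.0093) in Active and by 0.93 ± 0.25 (0.013) in UVB, and with plain library totals neither difference passed (0.46 and 0.48). Without UVB replicate 1 the UVB call was lost (0.052). Atp7a was lower by 0.60 ± 0.18 in Active (43.8 to 60.9 CPM in Quiescent, 31.7 to 39.4 in Active, 0.016), a direction that flipped to 0.16 with plain library totals. This call was lost without Quiescent replicate 3 (0.053) or Active replicate 2 (0.058) or 3 (0.057). In UVB, Atp7a stood at 38.4, 38.4 and 53.0 CPM and did not pass against either group, although with plain library totals it was higher than in Quiescent by 0.45 (0.042). Both Atp7a and Gpr143 lie on the X chromosome.

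**Figure D3:**
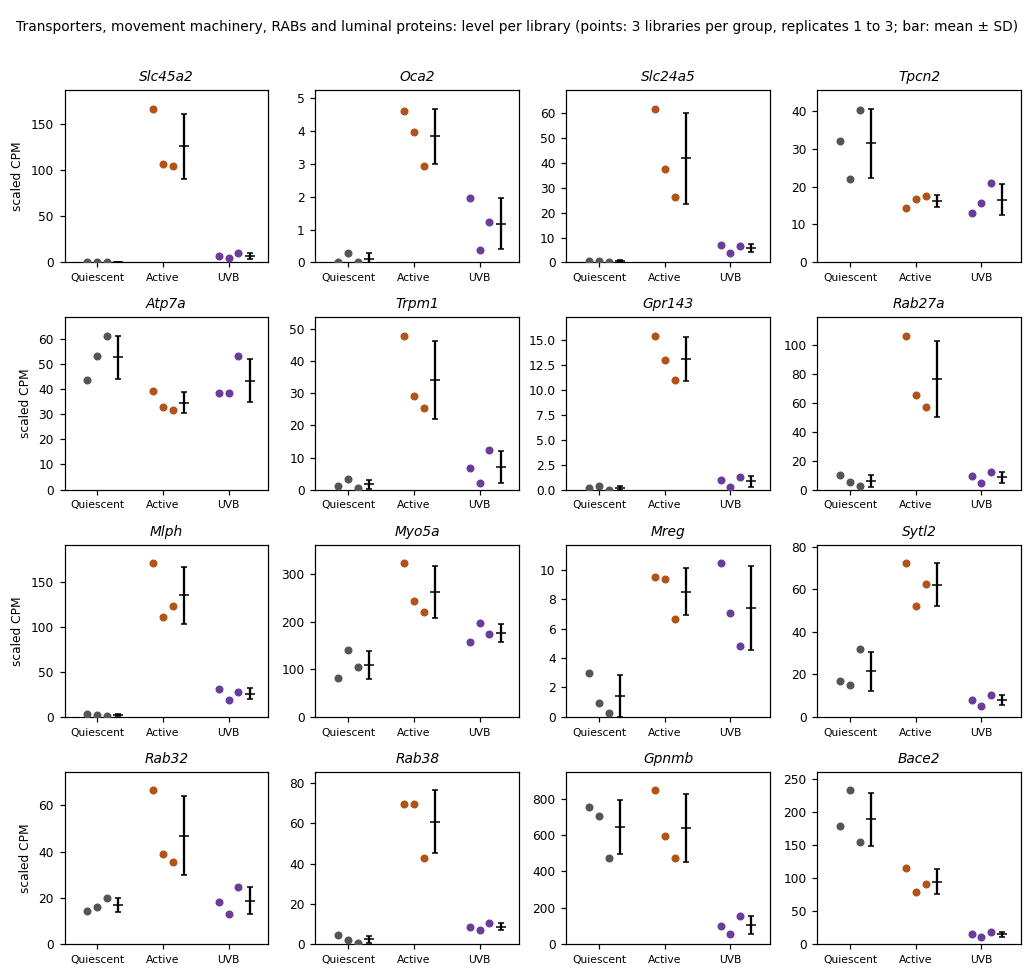
Scaled CPM of each library for the transporters, the movement machinery, the cargo RABs, Gpnmb and Bace2, 1 panel a gene with its own axis from 0, with a bar for the mean and standard deviation (SD) of 3 libraries. The Active points stand above all others for Slc45a2, Slc24a5, Trpm1, Gpr143, Rab27a, Mlph and Rab38, while Gpnmb and Bace2 are lowest in UVB.

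All 5 genes of the melanosome movement machinery were higher in Active than in Quiescent, where 29.1% of all genes were. In UVB against Quiescent, 3 of them (Mlph, Myo5a, Mreg) were higher and 1 (Sytl2) was lower, where 25.8% and 23.2% of all genes were. In UVB against Active, 3 (Rab27a, Mlph, Sytl2) were lower, where 9.19% of all genes were. Mlph (chr1:90915024-90951142) encodes melanophilin, the linker between RAB27A and myosin Va. It stood at 2.85, 2.50 and 1.004 CPM in Quiescent, 171, 111 and 124 in Active and 31.3, 18.8 and 27.4 in UVB, with no overlap between groups. The log2 differences were 5.97 ± 0.39 (edgeR adjusted p = 8.4e-06) and 3.58 ± 0.36 (1.0e-04) against Quiescent, and -2.39 ± 0.32 (0.0021) in UVB against Active.

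Rab27a (chr9:73044810-73097623), the GTPase on the ripe melanosome, stood at 10.3, 5.01 and 2.42 CPM in Quiescent, 106, 65.5 and 57.4 in Active and 9.11, 4.59 and 12.2 in UVB. Thus Active stood apart, whereas Quiescent and UVB overlapped. Active exceeded Quiescent by 3.67 ± 0.56 (12.7-fold, edgeR adjusted p = 5.2e-04, or 20.6-fold without Quiescent replicate 1), and UVB was below Active by 3.14 ± 0.54 (0.0055). The difference of 0.52 ± 0.52 between UVB and Quiescent did not pass (0.43). T cells and mast cells also use RAB27A for their granules, and the part of such cells in its level was not tested.

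Myo5a, the motor itself, was well expressed in every library, at 81.6, 141 and 104 CPM in Quiescent, 323, 243 and 220.4 in Active and 157, 196 and 174 in UVB. It was higher than Quiescent by 1.27 ± 0.22 in Active (edgeR adjusted p = 0.0011) and by 0.69 ± 0.22 in UVB (0.027). The UVB call was lost without Quiescent replicate 1 (0.081) or 3 (0.066) or UVB replicate 2 (0.082). Between UVB and Active the difference of -0.58 ± 0.22 did not pass (0.085), but passed in DESeq2 (0.046) and without Quiescent replicate 2 (0.047). Mreg, melanoregulin, which acts in melanosome transfer and dynein-based transport, stood at 3.01, 0.954 and 0.295 CPM in Quiescent, 9.54, 9.39 and 6.66 in Active and 10.5, 7.06 and 4.79 in UVB. Mreg was higher by 2.54 ± 0.66 in Active (5.81-fold, 0.0094) and by 2.34 ± 0.65 in UVB (5.07-fold, 0.017), and these folds were 13.6 and 11.8 without Quiescent replicate 1. Its UVB call was lost without UVB replicate 1 (0.056).

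Sytl2 differed in opposite directions from Quiescent in the other groups. It encodes the RAB27 effector that tethers melanosomes at the cell periphery. Its levels were 17.0, 15.1 and 32.01 CPM in Quiescent, 72.3, 52.0 and 62.3 in Active and 8.13, 5.34 and 10.2 in UVB, and none of the groups overlapped. It was higher by 1.54 ± 0.32 in Active (edgeR adjusted p = 0.0031) and lower by 1.43 ± 0.33 in UVB (0.0065), and UVB was below Active by 2.98 ± 0.34 (0.0011). With plain library totals the UVB difference from Quiescent was -0.69 and did not pass (0.067).

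The list of other RABs, effectors and motors of melanosomes had 17 tested genes. Active against Quiescent called 3 of them higher and 6 lower, where 29.1% and 29.2% of all genes were. UVB against Quiescent also called 3 and 6 (25.8% and 23.2% of all genes), and UVB against Active 2 and 1 (14.8% and 9.19%). Myrip, the RAB27 effector that pairs with myosin VIIa in the retinal pigment epithelium, ran counter to Mlph, with 24.2, 14.8 and 29.1 CPM in Quiescent, 0.436, 0.181 and 0.327 in Active and 3.25, 1.99 and 4.19 in UVB. It was lower than Quiescent by 6.14 ± 0.46 in Active (edgeR adjusted p = 1.4e-05) and by 2.85 ± 0.38 in UVB (3.9e-04), and higher in UVB than in Active by 3.29 ± 0.43 (0.002), although limma on log2(FPKM + 1) did not call the last (0.051). The ratio of Mlph to Myrip in FPKM was 0.126, 0.180 and 0.0368 in Quiescent, 417, 652 and 403 in Active and 10.3, 10.1 and 6.98 in UVB. This ratio was below 1 in every Quiescent library and far above 1 in every Active library. Myo7a, the myosin VIIa motor, stood at 10.9 to 21.1 CPM in Quiescent, 56.0 to 73.8 in Active and 7.74 to 23.8 in UVB, higher in Active than in Quiescent by 1.98 ± 0.39 (0.0022) and lower in UVB than in Active by 2.07 ± 0.39 (0.0076). Rab9, a GTPase of late endosomes, was lower than Quiescent by 0.67 ± 0.14 in Active (0.0025), which was 0.08 with plain library totals, and by 0.87 ± 0.14 in UVB (9.6e-04), which was -0.14 and not called (0.36).

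**Figure D4:**
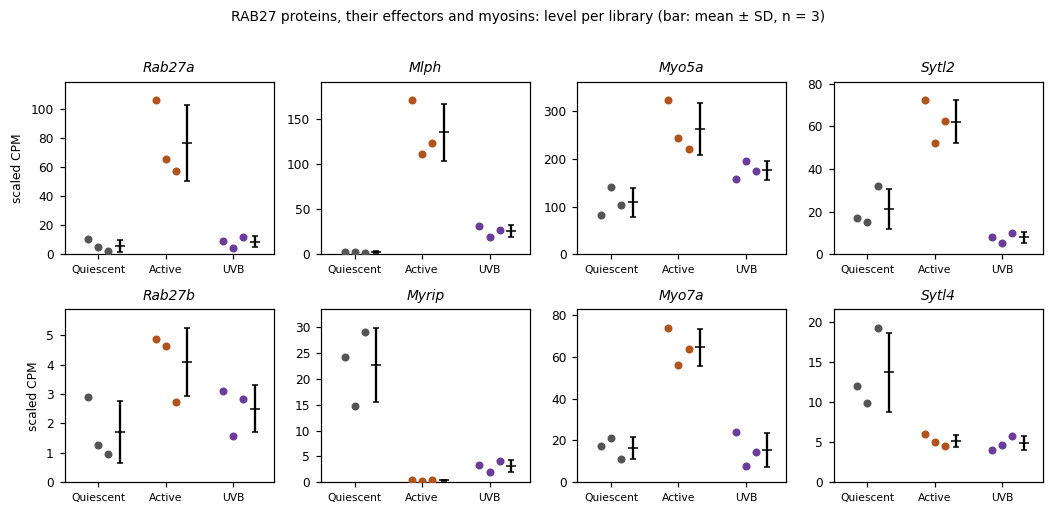
Scaled CPM per library is shown for the RAB27 genes, some of their effectors and 2 myosins. Each panel has an axis from 0, with mean and SD of 3 libraries. Myrip is highest in Quiescent (14.8 to 29.1 CPM) where Mlph is lowest (1.004 to 2.85 CPM), and Sytl2 is highest in Active and lowest in UVB. Rab27b and Sytl4 were added after their values were seen. Other effectors of the same list, such as Sytl1, Sytl3 and Unc13d, are not drawn.

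Both cargo RABs were higher in Active than in Quiescent and lower in UVB than in Active, where 29.1% and 9.19% of all genes were. RAB32 and RAB38 act as a pair that brings tyrosinase and its relatives to the melanosome. Rab38 stood at 4.30, 2.15 and 0.650 CPM in Quiescent, 69.8, 69.8 and 42.8 in Active and 8.48, 7.19 and 10.5 in UVB, with no overlap. It differed by 4.64 ± 0.54 (24.9-fold, edgeR adjusted p = 1.2e-04) and 1.84 ± 0.50 (3.58-fold, 0.015) from Quiescent, folds of 43.5 and 6.23 without Quiescent replicate 1, and by -2.80 ± 0.49 (0.0059) in UVB against Active. Rab32 moved less, from 14.2, 16.0 and 20.1 CPM in Quiescent to 66.4, 38.9 and 35.4 in Active, and stood at 18.2, 13.2 and 24.8 in UVB. It was higher in Active by 1.49 ± 0.30 (0.0027), and UVB against Quiescent did not pass (0.16 ± 0.30, 0.68), though it did with plain library totals (0.89, 0.026). UVB was below Active by 1.33 ± 0.30 (0.016), a call lost without Active replicate 1 (0.05) or UVB replicate 1 (0.055). Per length, the ratio of Rab38 to Rab32 was 0.407, 0.181 and 0.0436 in Quiescent, 1.42, 2.42 and 1.63 in Active and 0.628, 0.737 and 0.569 in UVB. Rab38 thus exceeded Rab32 in the 3 Active libraries only.

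The BLOC-1 complex carries cargo out of early endosomes, BLOC-2 directs those carriers to the melanosome and BLOC-3 activates RAB32 and RAB38. Of 9 subunits of the 3 complexes, Active against Quiescent called 3 higher and 1 lower, where 29.1% and 29.2% of all genes were. UVB against Quiescent called 2 higher and 3 lower (25.8% and 23.2% of all genes), and UVB against Active none (14.8% and 9.19%). Dtnbp1, dysbindin of BLOC-1, stood at 59.8, 49.1 and 58.2 CPM in Quiescent, 29.0, 29.8 and 25.4 in Active and 28.0, 21.3 and 31.6 in UVB. Both groups lay below Quiescent, by 0.99 ± 0.16 (edgeR adjusted p = 7.1e-04) and 1.05 ± 0.16 (8.0e-04), with -0.23 and -0.32 and no call with plain library totals. Bloc1s2 was higher in Active by 0.55 ± 0.15 (14.8 to 16.9 against 19.7 to 27.2 CPM, 0.012, or 0.051 without Active replicate 2). In UVB Bloc1s2 did not pass (0.34 ± 0.15, 0.085) except with plain library totals (1.07, 2.9e-04), and as an annotated pseudogene of it exists, its counts are uncertain. Bloc1s3 was lower in UVB by 0.75 ± 0.18 (10.3 to 14.4 against 6.40 to 7.97 CPM, 0.0086), but by 0.03 and not called with plain library totals. Bloc1s1, which overlaps Rdh5, had the second highest FPKM of the 33 genes in Quiescent and Active and the highest in UVB, and its differences of -0.07 and -0.35 from Quiescent did not pass. With plain library totals it was higher in Active by 0.69 (0.0045), and without UVB replicate 3 it was lower in UVB by 0.53 (0.029).

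Of BLOC-2, Hps3 and Hps5 were higher in both groups. Hps3, which overlaps Cp and whose window above carries CACGTG close to the start, stood at 19.7, 24.7 and 19.6 CPM in Quiescent, 36.0, 35.5 and 35.3 in Active and 30.9, 29.8 and 35.9 in UVB. Hps3 was higher by 0.74 ± 0.13 in Active (edgeR adjusted p = 0.0011) and by 0.59 ± 0.13 in UVB (0.0048). Hps5 stood at 41.8 to 46.1 CPM in Quiescent, 57.4 to 68.7 in Active and 53.4 to 66.0 in UVB, higher by 0.52 ± 0.11 (0.0041) and 0.49 ± 0.11 (0.0071). The last subunit, Hps6, passed in no comparison, at 5.41 to 8.99 CPM over the libraries. Of BLOC-3, Hps4, which overlaps Srrd and Gm6583, did not pass (9.69 to 16.8 CPM), though with plain library totals it was higher than Quiescent by 0.98 (0.0033) in Active and 0.93 (0.0052) in UVB. Hps1 was lower in UVB by 0.60 ± 0.18 (0.021), a direction that turned to 0.13 with plain library totals. This call was lost without Quiescent replicate 1 (0.063), UVB replicate 2 (0.071) or UVB replicate 3 (0.059). In Active, Hps1 differed by -0.44 ± 0.18 (0.056), which passed in DESeq2 (0.034), with RLE factors (0.049), with the stricter filter (0.042), with 2 groups in the fit (0.04) and without UVB replicate 1 (0.039).

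AP-3 sorts tyrosinase and OCA2 toward the melanosome. Of its 4 subunits, Active against Quiescent called 1 higher and 2 lower, where 29.1% and 29.2% of all genes were. UVB against Quiescent called 0 higher and 2 lower, where 25.8% and 23.2% of all genes were. The log2 differences in Active against Quiescent ran from -0.76 to 0.74. Ap3d1, the delta subunit, stood at 139, 143 and 149 CPM in Quiescent, 121, 106 and 111 in Active and 104, 99.6 and 113 in UVB. Ap3d1 was lower by 0.35 ± 0.09 (edgeR adjusted p = 0.011) and 0.44 ± 0.09 (0.0047), but higher by 0.40 (0.0053) and 0.28 (0.031) with plain library totals, and the Active call was lost without Active replicate 2 (0.055). Ap3s1, a sigma subunit, stood at 76.3, 66.8 and 94.6 CPM in Quiescent, 48.1, 46.1 and 46.3 in Active and 40.2, 39.7 and 56.3 in UVB. It was lower by 0.76 ± 0.17 (0.0044) and 0.80 ± 0.17 (0.0044), at 0.00 and -0.07 with plain library totals. Ap3s1 overlaps Atg12 and has 2 annotated pseudogenes, so its counts are uncertain.

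Ap3m1, the mu subunit that reads the sorting signal, stood at 61.4, 47.3 and 92.6 CPM in Quiescent, 112, 124 and 99.95 in Active and 91.8, 119.7 and 95.8 in UVB. It was higher in Active by 0.74 ± 0.23 (edgeR adjusted p = 0.021), a call lost without Quiescent replicate 1 (0.067) or 2 (0.053) or Active replicate 1 (0.051) or 2 (0.069). In UVB the difference of 0.61 ± 0.23 did not pass (0.053), but it did without Quiescent replicate 3 (0.0042), the highest library of that group, with plain library totals (1.36, 4.2e-04), in DESeq2 (0.045) and in limma on log2(FPKM + 0.1) (0.049). Ap3m1 overlaps Vcl. Ap3b1, the beta subunit whose loss gives the pearl mouse, stood at 69.8 to 88.8 CPM over all 9 libraries and passed in no comparison, but was higher than Quiescent with plain library totals, by 0.77 (1.1e-04) in Active and 0.63 (4.4e-04) in UVB. The second forms Ap3m2 and Ap3s2 were both higher in Active than in Quiescent, by 0.63 ± 0.14 (0.0041) and 0.46 ± 0.10 (0.0039). In UVB against Active they were lower by 0.58 ± 0.14 (0.019) and 0.40 ± 0.10 (0.024), calls that Ap3m2 lost without Active replicate 1 (0.053), 2 (0.067) or 3 (0.052) or UVB replicate 3 (0.051), and Ap3s2 without Active replicate 1 (0.056) or 2 (0.098) or UVB replicate 1 (0.079) or 3 (0.059) and in both limma fits (0.054 and 0.053).

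**Figure D5:**
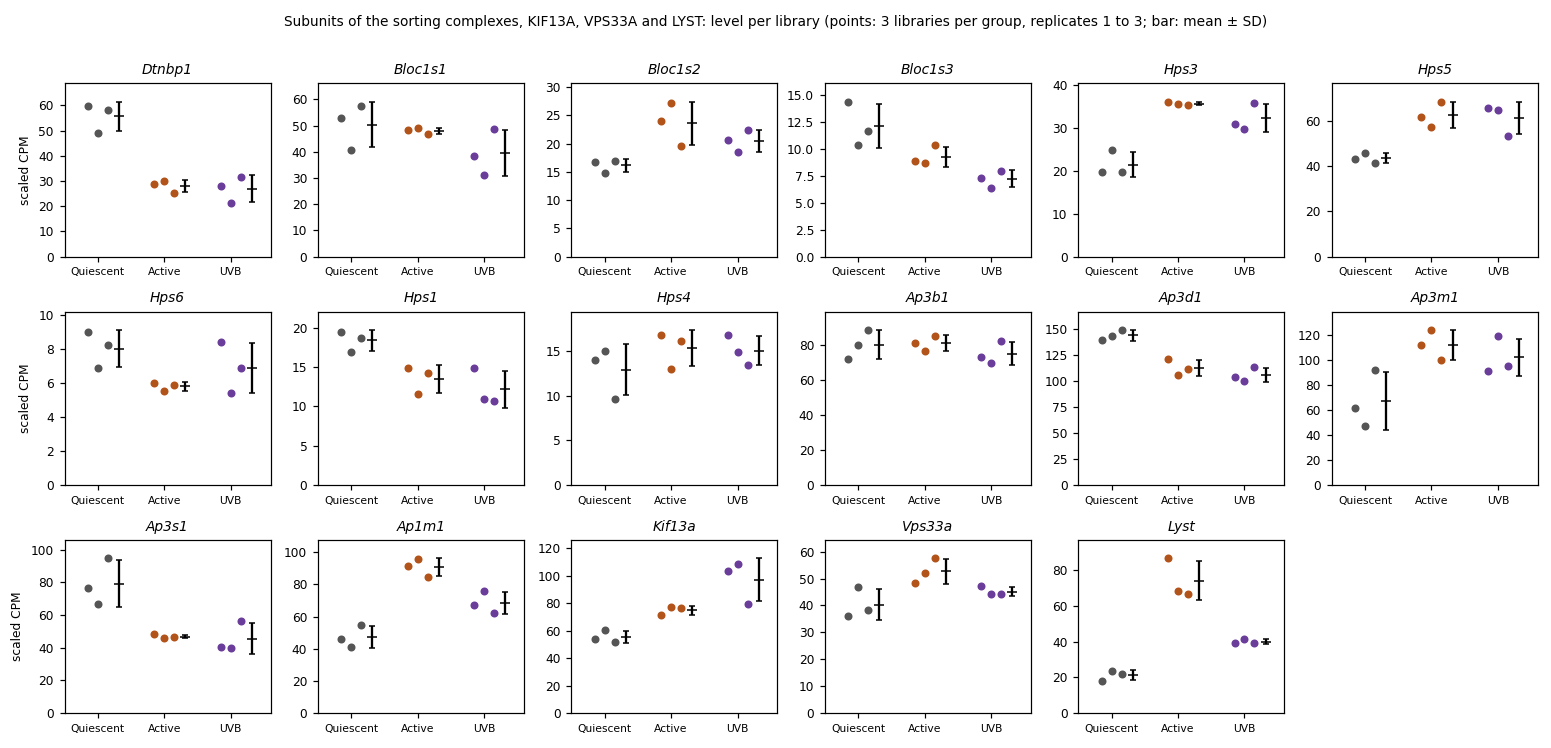
Scaled CPM of each library for the subunits of BLOC-1, BLOC-2, BLOC-3 and AP-3 and for Ap1m1, Kif13a, Vps33a and Lyst, with mean and SD of 3 libraries and an axis from 0 in each panel. Lyst shows the widest separation (18.02 to 23.5 CPM in Quiescent, 66.8 to 86.5 in Active), and Dtnbp1, Ap3d1 and Ap3s1 are highest in Quiescent.

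The remaining trafficking genes were all higher in Active than in Quiescent, where 29.1% of all genes were. LYST, the protein lost in Chediak-Higashi syndrome and the beige mouse, limits the size of lysosome-related organelles. Lyst stood at 18.02, 23.5 and 21.9 CPM in Quiescent, 86.5, 68.5 and 66.8 in Active and 39.1, 41.4 and 39.3 in UVB, without overlap. Its differences were 1.81 ± 0.14 (edgeR adjusted p = 1.6e-05) and 0.92 ± 0.14 (7.7e-04) against Quiescent and -0.89 ± 0.14 (0.0036) in UVB against Active. Ap1m1, the AP-1 subunit that works with the kinesin KIF13A on tubules to the melanosome, stood at 46.3, 41.4 and 54.6 CPM in Quiescent, 91.3, 95.7 and 84.9 in Active and 67.0, 75.7 and 62.3 in UVB. It was higher by 0.93 ± 0.13 (2.7e-04) and 0.53 ± 0.13 (0.0081), and lower in UVB than in Active by 0.41 ± 0.13 (0.045). The last call was lost with RLE factors or no filter (0.054 each) and without Quiescent replicate 1 (0.062), Active replicate 1 (0.11), 2 (0.15) or 3 (0.067) or UVB replicate 1 (0.13) or 3 (0.12).

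Kif13a stood highest in UVB, at 54.1, 60.6 and 52.1 CPM in Quiescent, 71.3, 77.1 and 76.6 in Active and 103, 109 and 79.6 in UVB. It was higher than Quiescent by 0.81 ± 0.13 in UVB (edgeR adjusted p = 0.0011) and by 0.43 ± 0.13 in Active (0.018), the latter lost without Quiescent replicate 1 (0.052) or Active replicate 2 (0.055) or 3 (0.053). UVB against Active gave 0.37 ± 0.13 (0.064), and 0.50 with an adjusted p of 0.018 without UVB replicate 3, its lowest library. Vps33a, a subunit of the HOPS complex that fuses late endosomes, was higher in Active by 0.38 ± 0.12 (36.1 to 46.8 against 48.5 to 57.5 CPM, 0.023), a call lost without Quiescent replicate 1 (0.075) or 3 (0.057) or Active replicate 2 (0.052) or 3 (0.066). In UVB Vps33a did not pass (0.16 ± 0.12, 0.29) except with plain library totals (0.88, 3.8e-04).

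Gpnmb and Bace2 were both lower in UVB than in Quiescent and than in Active, where 23.2% and 9.19% of all genes were. GPNMB is a glycoprotein of the melanosome that macrophages also make, and BACE2 is the protease that cuts PMEL into the fibrils on which melanin settles. Gpnmb (chr6:49036518-49058182) stood at 754, 707 and 476 CPM in Quiescent, 846, 593 and 476 in Active and 101, 56.0 and 155 in UVB. Quiescent and Active overlapped (-0.02 ± 0.36, edgeR adjusted p = 0.97), and UVB lay below both, by 2.64 ± 0.39 (6.7e-04) and 2.62 ± 0.39 (0.0031). Gpnmb had the highest FPKM of the 33 genes in Quiescent and Active and the fifth highest in UVB. The sum of 7 macrophage and Langerhans cell markers was 288, 2085 and 159.9 CPM in Quiescent, 30.1 to 83.1 in Active and 589 to 1286 in UVB, and the part of macrophages in the level of Gpnmb was not tested.

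Bace2 (chr16:97356728-97442936) stood at 179, 233 and 155 CPM in Quiescent, 115, 78.4 and 91.1 in Active and 14.9, 10.2 and 18.7 in UVB. None of its groups overlapped. It was lower than Quiescent by 0.99 ± 0.24 in Active (edgeR adjusted p = 0.0069), by 0.25 and not called with plain library totals (0.4), and by 3.69 ± 0.27 in UVB (2.3e-05). UVB was below Active by 2.70 ± 0.26 (6.7e-04). In the Quiescent libraries these levels coincided with a melanocyte marker sum of at most 229 CPM and a fibroblast marker sum of at least 337275 CPM, and the part of other cells in the Quiescent level of Gpnmb and Bace2 was not tested.

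Beyond the 33 genes, 59 further genes of these pathways were listed and 55 could be tested. In Active against Quiescent 12 of the 55 were higher and 17 lower (median log2 difference -0.15), where 29.1% and 29.2% of all genes were. UVB against Quiescent gave 4 and 18 (-0.21), where 25.8% and 23.2% of all genes were, and UVB against Active 3 and 7 (-0.09), where 14.8% and 9.19% were. Among ion and solute carriers, Slc36a1, a proton and amino acid carrier of lysosomes, stood at 52.7, 52.3 and 57.6 CPM in Quiescent, 16.3, 15.3 and 13.5 in Active and 23.8, 25.3 and 28.5 in UVB. Slc36a1 was lower than Quiescent by 1.85 ± 0.12 in Active (edgeR adjusted p = 7.7e-06) and by 1.07 ± 0.12 in UVB (1.5e-04), and higher in UVB than in Active by 0.78 ± 0.12 (0.0032). Atp6v0a1, a subunit of the proton pump, was lower in UVB (52.9 to 60.9 CPM) than in Active (106 to 154 CPM) by 1.20 ± 0.21 (0.0057). Cd63, a tetraspanin that sorts PMEL inside the organelle, stood at 1366, 1280 and 1406 CPM in Quiescent, 527, 443 and 403 in Active and 299, 305 and 438 in UVB, lower than Quiescent by 1.56 ± 0.18 (1.1e-04) and 1.96 ± 0.18 (6.9e-05). Snapin of BLOC-1 and Vps41 of HOPS were lower in Active by 0.56 ± 0.13 (0.0053) and 0.55 ± 0.11 (0.0022) and in UVB by 0.64 ± 0.13 (0.0034) and 0.63 ± 0.11 (0.0016), all of which turned to between 0.08 and 0.20 with plain library totals. Fig4, a phosphatase of endosomal lipids, was lower by 0.79 ± 0.15 (0.0016) and 0.80 ± 0.15 (0.0021), and by 0.03 and 0.07 with plain library totals, not called.

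In Active and UVB, 1 library of the group was the highest for many of the genes. Active replicate 1 was the highest Active library for 22 of the 33 genes and for 30.7% of all genes tested, and Active replicate 3 the lowest for 19 and for 36.9%. UVB replicate 3 was the highest of its group for 19 and for 44.7% of all genes, and UVB replicate 2 the lowest for 22 and for 43.1%. In Quiescent the highest library was replicate 1, 2 or 3 for 9, 13 and 11 genes, and the lowest for 8, 11 and 14. The lineage regulator Mitf had the same highest libraries, with 379, 132 and 119 CPM in Active and 23.8, 19.97 and 38.1 in UVB, beside 47.3, 53.8 and 64.0 in Quiescent. The pigment enzyme gene Tyr stood at 677, 387 and 359 CPM in Active and 28.6, 21.3 and 36.4 in UVB, and at 1.45, 2.44 and 2.19 in Quiescent. Sox10 did not share this order, at 551, 561 and 661 CPM in Active and 528, 581 and 312 in UVB. Of the 11 melanocyte lineage markers, 9 were lower in UVB than in Active, where 9.19% of all genes were lower. The median log2 difference over the list was -2.94. The 2 that did not pass were Sox10 (-0.32 ± 0.51, edgeR adjusted p = 0.69) and Ednrb (-1.25, 0.24).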

How the data were processed

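RNA was measured in 9 libraries, grouped by the labels as Quiescent, Active and UVB. Per the labels' protocols, poly(A) RNA was made into libraries with a directional kit; per the submitters' processing notes, cutadapt 1.8, TopHat2 2.0.13, Cuffdiff 2.2.1 and mm10 were used. The annotation and the use of strand in counting are not given in the sources used. The authors' deposited table gives estimated counts of fragments per gene (1.08% of 210249 values not whole, none in the 33 genes) and the authors' FPKM, which is per transcript length. Library totals were 21045070 to 35131778 fragments; limits for a count of 0 (3 fragments) cover counting error only. Libraries of a group differed by more than sampling noise.

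Rounded estimated counts went into edgeR 4.0.16 under R 4.3.3 (its quasi-likelihood test, with TMM factors of 0.660 to 0.748 in Quiescent and 1.163 to 1.225 elsewhere, filterByExpr leaving 15078 genes, 1 fit of 9 libraries, two-sided Benjamini-Hochberg adjusted p over all genes, threshold 0.05) and the test was tried on simulated data. The SE is the log2 difference over the square root of F. Alternatives were RLE factors, plain library totals, DESeq2 1.42.0, no filter, a filter of 50 counts in 3 libraries, limma 3.58.1 on log2(FPKM + 1) and log2(FPKM + 0.1), 2 groups in the fit, a replicate block and leaving out each library. Named were all 33 genes, Sox10, Mitf, Tyr and, from each class of other pathway genes, up to 2 with the smallest adjusted p in each comparison, of which a part is given. The genes and lists were chosen with earlier results of these data known. Protein identity between the RABs was not analysed here.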

Additional observations from a re-analysis of the deposited data

How the results depend on the processing

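Of 1781 values of single genes under the alternatives, 1654 kept their direction and side of the threshold, 69 lost and 22 gained a call, 28 changed sign with neither value past it, and 8 changed sign with at least 1 of the values past it (both for Ap3d1). All 8 came with plain library totals, which shift all genes upward against Quiescent: 0.40 (Ap3d1), 0.00 (Ap3s1), 0.16 (Atp7a) and 0.69 (Bloc1s1) in Active, and 0.63 (Ap3b1), 0.28 (Ap3d1), 0.45 (Atp7a) and 0.13 (Hps1) in UVB. Of the other pathway genes, only those picked by the naming rule above were compared between settings, so the next list is not complete. Those that turned there with at least 1 value past the threshold were Atp6v1h (0.26), Bloc1s4 (0.39), Bloc1s6 (0.22), Mcoln1 (0.10), Rab9 (0.08), Snapin (0.19) and Vps41 (0.20) in Active, and Bloc1s4 (0.11), Bloc1s5 (0.53), Bloc1s6 (0.29), Snapin (0.08) and Vps41 (0.10) in UVB. With those totals 0 of the 33 genes were lower in Active (6 with TMM), and 22 were higher and 2 lower in UVB (14 and 9). All genes then split into 8651 higher and 2206 lower in Active (4390 and 4396 with TMM) and 8746 and 1246 in UVB (3895 and 3498).

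Leaving out 1 library gave 16 to 20 of the melanosome genes higher and 4 to 7 lower in Active against Quiescent. It gave 10 to 14 and 8 to 9 in UVB against Quiescent. In UVB against Active it gave 0 to 1 and 10 to 14, the 1 being Kif13a without UVB replicate 3. Among all genes, the same fits called 3843 to 4452 higher and 3679 to 4486 lower in Active against Quiescent. They called 3214 to 3865 and 2687 to 3728 in UVB against Quiescent. In UVB against Active they called 999 to 2548 and 453 to 1678, beside 2226 and 1386 with all libraries. The lowest counts there came without Active replicate 2. With the replicate block the counts of the melanosome genes were 20 and 7, 12 and 9, and 0 and 11. Those of all genes were 4135 and 4088, 3580 and 3229, and 1826 and 1004. After group means were taken off, same-numbered libraries correlated from -0.17 to 0.23 and differently numbered ones from -0.21 to 0.26. Between Quiescent and Active, same-numbered pairs gave 0.13, 0.07 and 0.23, and the others -0.21 to 0.12. Not every library correlated best with its own number, so no pairing was taken, but such correlations cannot exclude it. Calls were lost under the block by Trpm1 and Gpr143 in UVB against Quiescent and by Trpm1 and Ap1m1 in UVB against Active. With 5 Quiescent fragments, Oca2 is limited by depth.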
